A study of Populus tremula x Populus alba with 24 samples.

Results

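The comparison is of poplar roots 4 h after treatment with lipochitooligosaccharides (LCO) against control roots, 6 libraries of the 22 in the deposited tables and of the 24 samples in the labels. They were picked by label, with earlier results of these data known. They are 3 libraries of 4 h (replicates 1 to 3) and 3 of the control at time 0. All plants were of 1 hybrid clone, Populus tremula x Populus alba 717-1B4, grown in vitro on a medium low in nitrogen and phosphate, and each library pools the roots of 4 plants. The treated roots had been flooded for 1 h, starting 3 h after dawn, with 10 nM LCO purified from Rhizobium sp. IRBG74, and the control solution was 0.005% ethanol. Control roots came from time 0 only. The 4 h difference therefore combines LCO, the time since flooding and a later hour of the day, which cannot be told apart, and the labels do not state plainly whether control roots were flooded or whether 4 h is counted from the beginning of the flooding or from its end.

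LCOs are short chitin chains that carry a fatty acid. Rhizobia and mycorrhizal fungi release them, and in legumes they are bound at the root surface by receptor kinases with LysM domains. Signalling through these receptors leads to repeated calcium rises in the nucleus and to transcription factors that prepare the root for the symbiont. Poplar is not a host of nodule-forming rhizobia, but its roots form arbuscular mycorrhiza and ectomycorrhiza. Which of the genes below belong to that pathway was not examined, because the sources used here pair no gene identifier with a name or function, and the labelled tissue could not be set against marker genes for the same reason.

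Levels are in TPM, the usual unit of relative transcript abundance corrected for transcript length. Differences are between group means on the log2(TPM + 1) scale, which shrinks the ratio between low TPM values. Where the libraries of a group differ widely, they can be smaller or larger than the ratio of mean TPM. A gene was called where the adjusted p of limma was under 0.05, and only called genes are said to have risen or fallen. The read depth behind the values is unknown, and so is whether a value of 0 means that no transcript was present. The 4 h libraries were close to each other, with correlations across genes of 0.967 to 0.976 and a median SD of 0.173 on the log2 scale, against 0.958 to 0.972 and 0.205 in the control. In the main fit, the standard errors (SE) and p values use 1 spread per gene from all 22 libraries. These include groups that varied more, with a median SD of 0.319 at 15 min, 0.303 at 30 min and 0.272 at 1 h. In bulk roots, fewer cells of a type and less RNA per cell cannot be told apart.

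At 4 h, 1182 genes had risen and 1270 had fallen among 25636 tested, 9.56% in all (4.61% risen, 4.95% fallen). The falls were larger than the rises. The median log2 fold change was 0.88 for genes that rose and -1.14 for genes that fell, and 37 genes rose at least 4-fold while 169 fell as much. At 16-fold or more on the log2(TPM + 1) scale, 20 genes fell and 1 gene, Potri.003G061200, rose. By mean TPM this gene was 10.3-fold its control, whose libraries differed widely. The median log2 fold change over all genes tested was 0.05, and quantile normalization of the deposited values favours a small value. In 2443 of the 2452 genes the 3 libraries of 4 h lay wholly on 1 side of the 3 control libraries, which held for 35% of all genes tested (20.1% with 4 h higher, 14.9% with 4 h lower). The count of called genes fell to 1460 when control replicate 1 was left out, to 1586 when 4 h replicate 1 was and to 1352 when 4 h replicate 2 was, with more falls than rises in each. Rises outnumbered falls with library weights (3544 against 2832) and with 15 min replicate 2 and 30 min replicate 3 both left out (1798 against 1760). At an unadjusted p under 0.05 (limma), 3086 genes were higher at 4 h and 2596 lower.

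**Figure D1:**
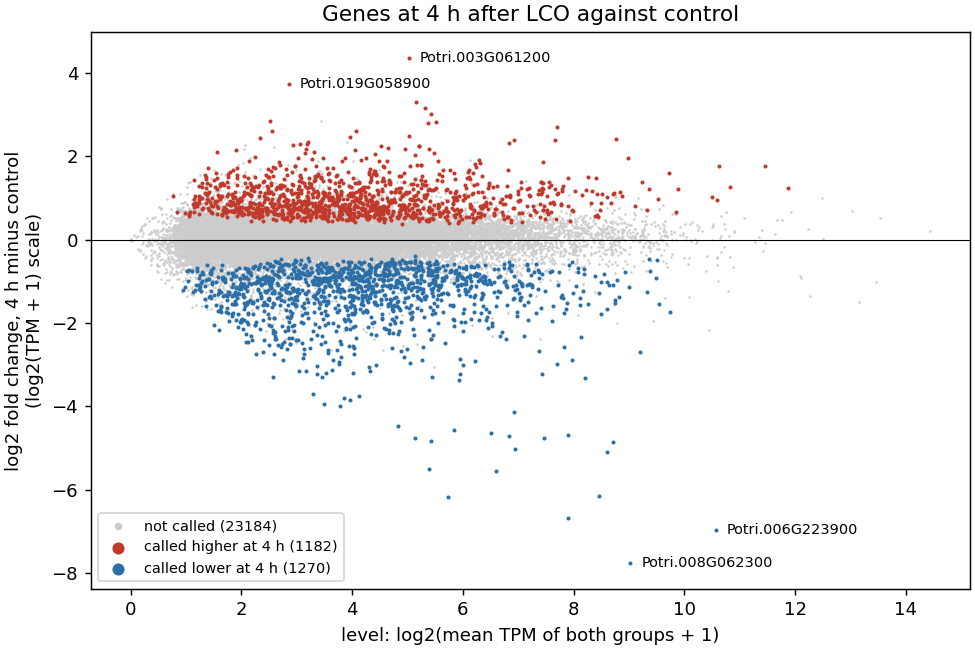
Each point is 1 of 25636 genes, with its level on the horizontal axis (log2 of the mean TPM of control and 4 h, plus 1) and its log2 fold change at 4 h minus control on the vertical axis. Coloured points are the 1182 genes called higher and the 1270 called lower; the lower cloud reaches -7.77 and the upper one 4.36.

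In control roots the median level was higher for genes that fell than for genes that rose, and at 4 h it was lower. Choosing genes by the direction of their change favours this order. The median of genes that fell was 22.8 TPM in the control and 8.39 TPM at 4 h. Genes that rose went from a median of 9.11 to 18.01 TPM. Over all genes tested the median was 8.41 TPM in the control and 8.38 TPM at 4 h. Quantile normalization gives the libraries nearly the same distribution, so these overall medians are held together and show nothing about the roots. The genes that fell together held 8.22% to 8.90% of all TPM in the control libraries and 3.1% to 3.38% in the 4 h libraries. The genes that rose held 3.86% to 4.34% in the control and 8.18% to 9.73% at 4 h. These medians and sums describe genes chosen for their change and carry no test. The gain was in fewer genes than the loss: 10 genes made 32.3% of the TPM gained and 10 made 19.3% of the TPM lost, and it took 37 genes to reach 50% of the gain and 71 to reach 50% of the loss.

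The share of genes called differed between levels. With genes sorted by their mean over all 22 libraries, 3.45% of the 13704 genes between 1 and 10 TPM rose and 3.23% fell. Between 10 and 100 TPM, 5.70% of 10360 genes rose and 6.88% fell, and between 100 and 1000 TPM, 7.39% of 1502 rose and 7.66% fell. Of the 70 genes over 1000 TPM, 7 rose and 0 fell. A gene that fell and stayed low has a low mean over the time course, so these classes place it by its own change: Potri.006G223900 and Potri.008G062300, with control means of 3018 and 1034 TPM, are not in the top class. By the control level alone, 81 genes over 100 TPM rose and 178 fell. How many tested genes were over 100 TPM in the control was not counted, so no share is given. A high control level also favours falls, because the control is 1 side of the comparison. The median standard error of the log2 fold change was 0.243, 0.215, 0.217 and 0.292 in these 4 classes, and the part that precision plays in the shares was not tested.

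**Figure D2:**
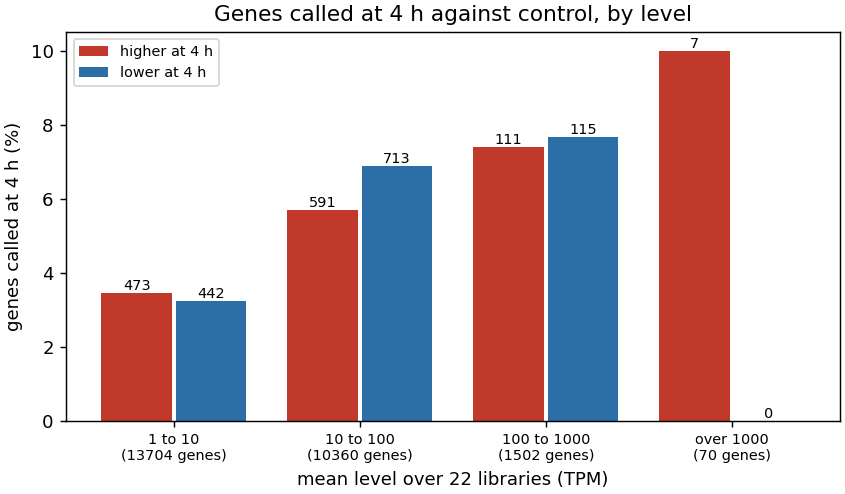
Bars give the percentage of genes called higher (red) or lower (blue) at 4 h against control in 4 classes of mean TPM over 22 libraries, with the number of genes called above each bar. The share called higher goes from 3.45% in the class of lowest level to 10% in that over 1000 TPM, while the share called lower goes from 3.23% to 7.66% over the 3 lower classes and is 0 over 1000 TPM.

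The 2 genes with the largest falls were among the most abundant in control roots. Potri.008G062300 stood at 1079.7, 929 and 1093 TPM in the control libraries and at 4.23, 4.45 and 2.73 TPM at 4 h. Potri.006G223900 stood at 2891, 2104 and 4059 TPM in the control and at 25.2, 14.9 and 28.9 TPM at 4 h. Every 4 h library lay far below every control library for both genes. The mean was 272-fold lower for Potri.008G062300 (log2 fold change -7.77, SE 0.36, adjusted p = 2.82e-10, limma) and 131-fold lower for Potri.006G223900 (-6.97, SE 0.35, adjusted p = 6.23e-10). Much of this difference was there earlier: at 15 min the means stood at 8.54 and 67.5 TPM, and the step from 2 h to 4 h was called for neither (log2 difference -0.36, SE 0.40, and -0.66, SE 0.39). From 4 h to 8 h Potri.006G223900 fell again, to 14.0, 10.1 and 7.22 TPM (-1.06, SE 0.35, adjusted p = 0.0404), while Potri.008G062300 was not called (-0.57, SE 0.36, adjusted p = 0.274). The later fall of Potri.006G223900 lost its call when 4 h replicate 1 or 3 or 8 h replicate 2 or 3 was left out (limma, adjusted p from 0.0958 to 0.155) and with no filter on low values (0.0650), over a range of 0.00475 to 0.155 in 14 alternatives.

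The 2 genes with the largest rises were listed at 0 in most control libraries. Potri.019G058900 was listed at 0 in each control library and reached 13.6, 14.2 and 9.42 TPM at 4 h (limma, adjusted p = 3.49e-08); no fold is given against a group at 0. It was also at 0 in every library of 15 min and 30 min, between 1.93 and 3.66 TPM at 1 h, and at 25.6 and 27.2 TPM at 2 h, above all 4 h libraries. The log2 difference between 4 h and 2 h was -1.05 (SE 0.28) and missed the threshold (adjusted p = 0.0809). At 8 h it had fallen to 1.97, 0.328 and 1.59 TPM (-2.61, SE 0.25, adjusted p = 8.56e-05), below every 4 h library. Potri.003G061200 was at 0, 0 and 16.8 TPM in the control and at 92.9, 45.9 and 34.3 TPM at 4 h, a log2 fold change of 4.36 with a wide error (SE 1.06, adjusted p = 0.0130). Its call was lost when control replicate 1 (adjusted p = 0.0792), control replicate 2 (0.0699) or 4 h replicate 1 (0.0625) was left out, over a range of 0.000310 to 0.0792 in 14 alternatives. The mean of this gene was already 23.5 TPM at 15 min and 43.1 TPM at 2 h, though neither was called against control. From 2 h to 4 h the step was not called either (0.41, SE 1.18).

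**Figure D3:**
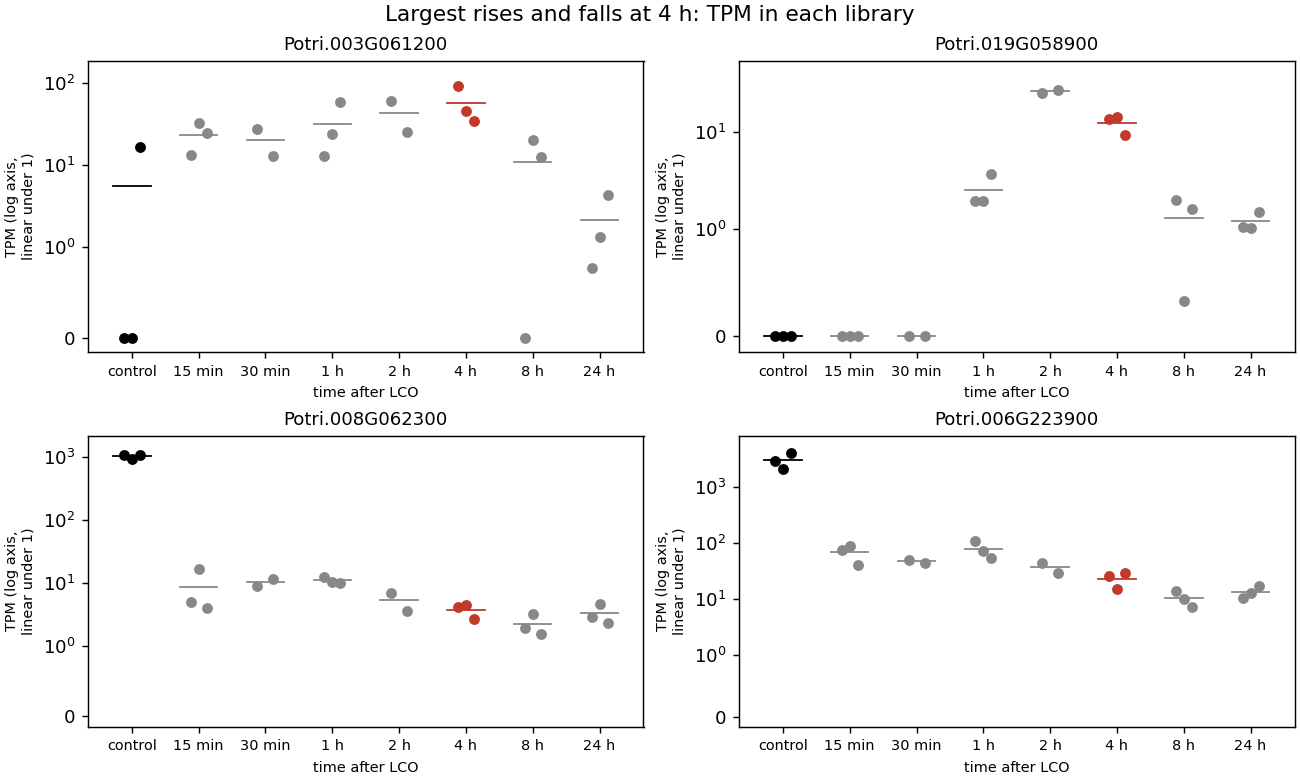
TPM in each library (points) and the group mean (lines) for the 2 genes with the largest rise and the 2 with the largest fall at 4 h, on a log axis that is linear under 1 TPM; control in black, 4 h in red, other times in grey. Potri.008G062300 and Potri.006G223900 are far below the control from 15 min on, and Potri.019G058900 is at 0 until 30 min, at 25.6 and 27.2 TPM at 2 h and between 9.42 and 14.2 TPM at 4 h.

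The genes called at 4 h were followed through the other times. These values share the control libraries with the 4 h comparison and are given side by side, with no test. For the 1182 genes that rose, the median log2 difference from control lay between 0.14 and 0.23 up to 1 h. It was 0.53 at 2 h and 0.88 at 4 h, and then stayed near that size, with 0.89 at 8 h and 0.76 at 24 h. For the 1270 that fell it lay between 0.00 and -0.21 up to 1 h. It then went to -0.70 at 2 h and -1.14 at 4 h, and was -1.27 at 8 h and -1.31 at 24 h. Most of the difference was added between 1 h and 4 h in both directions. The 4 h libraries chose these genes, which favours large medians at 4 h. The middle of the genes that fell ranged widely at 15 min, with quartiles at -0.58 and 0.60.

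The direction of the 4 h genes was then read in libraries that chose none of them. The comparison of 8 h with 1 h uses no control and no 4 h library, though the fit takes 1 spread per gene from all libraries. Of the 1182 genes that rose at 4 h, 681 (57.6%) were higher at 8 h than at 1 h, against 23.9% of all genes tested (43.4% were called in either direction), and 76 (6.43%) were lower. Of the 1270 that fell, 851 (67.0%) were lower at 8 h than at 1 h, against 19.5% of all genes, and 28 (2.20%) were higher. Leaving out each of 17 libraries in turn gave 49.5% to 64.4% and 62.2% to 72.8%.

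The step from 2 h to 4 h was compared directly, with 2 libraries at 2 h. It called 111 genes higher at 4 h (0.433% of those tested) and 210 lower (0.819%), 1.25% together. The count of 321 rested on single libraries: it was 19 when 2 h replicate 1 was left out and 93 when 2 h replicate 2 was, and 130, 113 and 192 when 4 h replicates 1, 2 and 3 were. Of the genes that rose at 4 h against control, 58 were also higher than at 2 h, and of those that fell, 136 were also lower than at 2 h; both comparisons use the 4 h libraries. How far the 58 and the 136 rest on single libraries was not examined. The 136 genes had medians above or near the control until 2 h (log2 difference between 0.30 and 0.50 up to 1 h and 0.05 at 2 h), then -1.32 at 4 h and -1.75 at 8 h. The control, 2 h and 4 h libraries chose these genes, which favours a drop between 2 h and 4 h. In the comparison of 8 h with 1 h, which uses neither control, 2 h nor 4 h libraries, 130 of the 136 were lower (95.6%, against 19.5% of all genes). Of the 58, 52 were higher (89.7%, against 23.9%).

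Among genes also called at 4 h against control that met the rule for naming given below, Potri.015G000500 had the largest step up. It was at 118, 63.1 and 105 TPM in the control, at 35.5 and 42.3 TPM at 2 h, and at 281, 225 and 218 TPM at 4 h. The 2 h libraries lay below all controls and the 4 h libraries above them, so the gene crossed its control level between these times (4 h against 2 h 2.60, SE 0.23, adjusted p = 5.50e-05; 4 h against control 1.37, SE 0.21, adjusted p = 0.000338). Potri.013G134300 also stepped up, at a lower level, with 1.98, 2.89 and 0.901 TPM in the control, 0.717 and 0.912 TPM at 2 h and 8.74, 8.90 and 7.11 TPM at 4 h. Its 2 h level overlapped the control and was not called against it (-0.63, adjusted p = 0.293), its 4 h level did not overlap, and the step was 2.35 (SE 0.29, adjusted p = 0.000881).

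In the other direction, Potri.005G081400 was at 154, 174 and 67.7 TPM in the control, at 70.2 and 103 TPM at 2 h and at 13.7, 13.8 and 19.0 TPM at 4 h. At 2 h it still lay within the control range, and at 4 h it was below every earlier library (4 h against 2 h -2.40, SE 0.47, adjusted p = 0.0165). Potri.012G006800 went down in stages, from 639, 291 and 447 TPM in the control over 91.9 and 83.5 TPM at 2 h to 21.6, 10.2 and 18.5 TPM at 4 h (-2.38, SE 0.45, adjusted p = 0.0127). The step of Potri.005G081400 lost its call when replicate 1 or 2 of either time was left out (limma, adjusted p up to 0.156). That of Potri.012G006800 lost it when replicate 1 or 2 of 2 h or replicate 2 of 4 h was (up to 0.154). Against control both had fallen at 4 h (-2.92, SE 0.42, adjusted p = 0.000190, and -4.68, SE 0.40, adjusted p = 6.34e-07).

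The step from 4 h to 8 h was larger: 2428 genes were higher at 8 h (9.47%) and 2334 lower (9.1%), 18.6% together. Of the 1182 genes that rose at 4 h, 128 (10.8%) were higher still at 8 h, 129 (10.9%) were lower again and 925 were not called, shares near those of all genes. Of the 1270 that fell, 165 (13.0%) were lower still, 54 (4.25%) were higher again and 1051 were not called. Both comparisons use the 4 h libraries, so a 4 h level that is too high or too low by chance counts in both for the genes that turn back. The 4762 genes of this step became 1335 when 4 h replicate 1 was left out and 2858 when 4 h replicate 2 was. They became 2709, 2235 and 2428 when 8 h replicates 1, 2 and 3 were.

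The median of the 129 genes that rose and then dropped was near the control by 8 h. This median log2 difference from control was 0.41, 0.48 and 0.75 in the 1 h libraries, 0.70 and 0.92 at 2 h and 1.14, 1.07 and 0.87 at 4 h. It was between 0.06 and 0.20 at 8 h and between 0.10 and 0.31 at 24 h. The median of the 54 genes that fell and then came up again was -1.01, -0.90 and -0.74 at 4 h, between -0.11 and -0.05 at 8 h and between -0.32 and -0.12 at 24 h. The 129 and the 54 genes were chosen for turning back after 4 h, which favours a level nearer the control at 8 h. Single genes went past or stayed short of the control: at 8 h, 10 of the 129 were called above it and 6 below it, and 113 were not called. Of the 54, 48 were not called against control at 8 h. The genes that went on were chosen for a further step to 8 h, so moving further follows from the choice. Their median at 8 h was between 1.59 and 1.67 for the 128 and between -2.23 and -2.08 for the 165.

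The turn was also read in libraries that did not choose these genes, by comparing 24 h with 2 h. Of the 129 genes, 63 (48.8%) were lower at 24 h than at 2 h, against 14.9% of all genes (33.4% were called in either direction). Of the 54 genes, 26 (48.1%) were higher at 24 h than at 2 h, against 18.5% of all genes. This comparison called 8566 genes in all, and 4066 when 2 h replicate 2 was left out. The size of both sets rested on single libraries: the 129 became 35 and 51 when 4 h replicates 1 and 2 were left out, 79 and 84 when control replicates 1 and 3 were, and 63, 84 and 62 when 8 h replicates 1, 2 and 3 were. The 54 became 9 and 24 when 4 h replicates 1 and 2 were left out, 33, 35 and 27 when control replicates 1, 2 and 3 were, and 24, 20 and 21 when 8 h replicates 1, 2 and 3 were. Over the 17 libraries left out in turn, the share lower at 24 h was 33.3% to 74.3%, with 7.37% to 15.8% of all genes, and the share higher was 27.3% to 66.7%, with 8.49% to 19.5% of all genes.

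**Figure D4:**
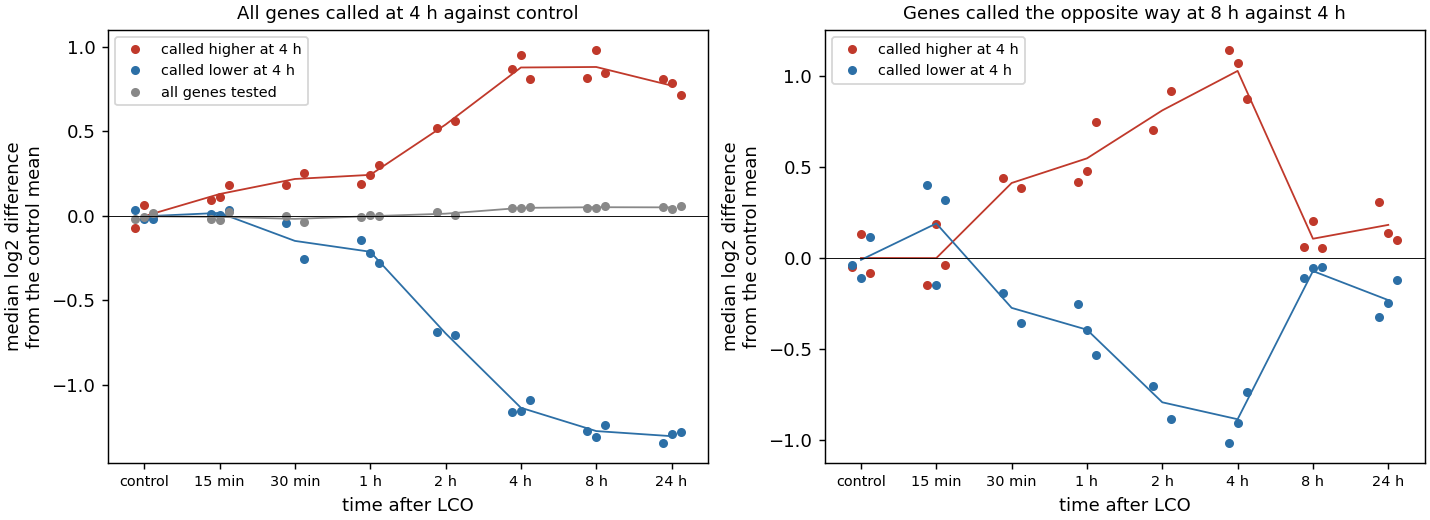
Points are the median log2 difference from the control mean in each library and lines join the group means, in red for genes called higher and in blue for genes called lower at 4 h. The left panel has all 1182 and 1270 called genes with all genes tested in grey (0.05 at 4 h); the right panel has the 129 and 54 genes that 8 h against 4 h called the opposite way, which lie between -0.11 and 0.20 at 8 h.

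Potri.011G025900 showed the largest drop after 4 h among genes also called at 4 h against control that met the rule for naming. It was at 16.2, 24.8 and 7.78 TPM in the control, at 64.9, 39.6 and 108 TPM at 4 h and at 4.17, 9.22 and 5.97 TPM at 8 h. The 4 h libraries were above all controls and all 8 h libraries, though they differed from each other more than those of most genes (4 h against control 2.08, SE 0.43, adjusted p = 0.00469; 8 h against 4 h -3.21, SE 0.43, adjusted p = 0.000637). It had stood at 103 and 86.9 TPM at 2 h, and the step from 2 h to 4 h was not called (-0.52, SE 0.49). Against control it was called lower at 8 h (-1.13, limma, adjusted p = 0.0495) and at 24 h (-2.07, adjusted p = 0.00155). Potri.006G002200 took the same course, from 7.59, 6.27 and 9.22 TPM in the control to 46.0, 24.4 and 51.1 TPM at 4 h and 4.18, 2.11 and 4.58 TPM at 8 h (2.20, SE 0.44, adjusted p = 0.00350, then -3.14, SE 0.44, adjusted p = 0.000913). Potri.006G002200 was not called against control at 8 h (-0.94, limma, adjusted p = 0.105). By 24 h it was at 1.23, 0.898 and 0.743 TPM, below every control library.

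In the opposite direction, Potri.001G379850 had control levels of 12.6, 7.64 and 11.1 TPM, dropped at 4 h to 1.36, 0.312 and 3.95 TPM, and reached 32.2, 24.2 and 33.9 TPM at 8 h. Its fall against control was near the threshold (-2.18, SE 0.67, adjusted p = 0.0481). It lost its call when any control replicate or 4 h replicate 1 or 2 was left out (limma, adjusted p from 0.0771 to 0.220) and with no filter on low values (0.0854), over a range of 0.00238 to 0.220 in 14 alternatives. Transcript 1 of this gene, tested with the other transcripts, was not called at 4 h against control (-2.14, SE 0.69, limma, adjusted p = 0.0809). The rise of the gene from 4 h to 8 h was 3.63 (SE 0.67, adjusted p = 0.00335), and its 8 h level was not called against control (1.46, limma, adjusted p = 0.0979). Potri.001G379850 also varied widely within the 15 min group, with 184, 13.4 and 87.7 TPM, and that spread enters the SE of its fall at 4 h. With 15 min replicate 2 and 30 min replicate 3 both left out, the limma adjusted p of the fall was 0.00562. With only the control and 4 h libraries in the fit it was 0.0252. Potri.006G133500 stood at 122, 138 and 170 TPM in the control and had fallen to 74.1, 62.6 and 71.6 TPM by 4 h (-1.03, SE 0.26, adjusted p = 0.0164), a call lost when control replicate 3 (0.0715) or 4 h replicate 2 (0.0740) was left out, over a range of 0.000518 to 0.0740 in 14 alternatives. At 8 h it stood at 164, 301 and 294 TPM, with every library above all of 4 h (1.80, SE 0.26, adjusted p = 0.00100), and the step from 2 h to 4 h was not called (0.11, SE 0.29). Its 8 h level was called above the control (0.78, limma, adjusted p = 0.0260).

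**Figure D5:**
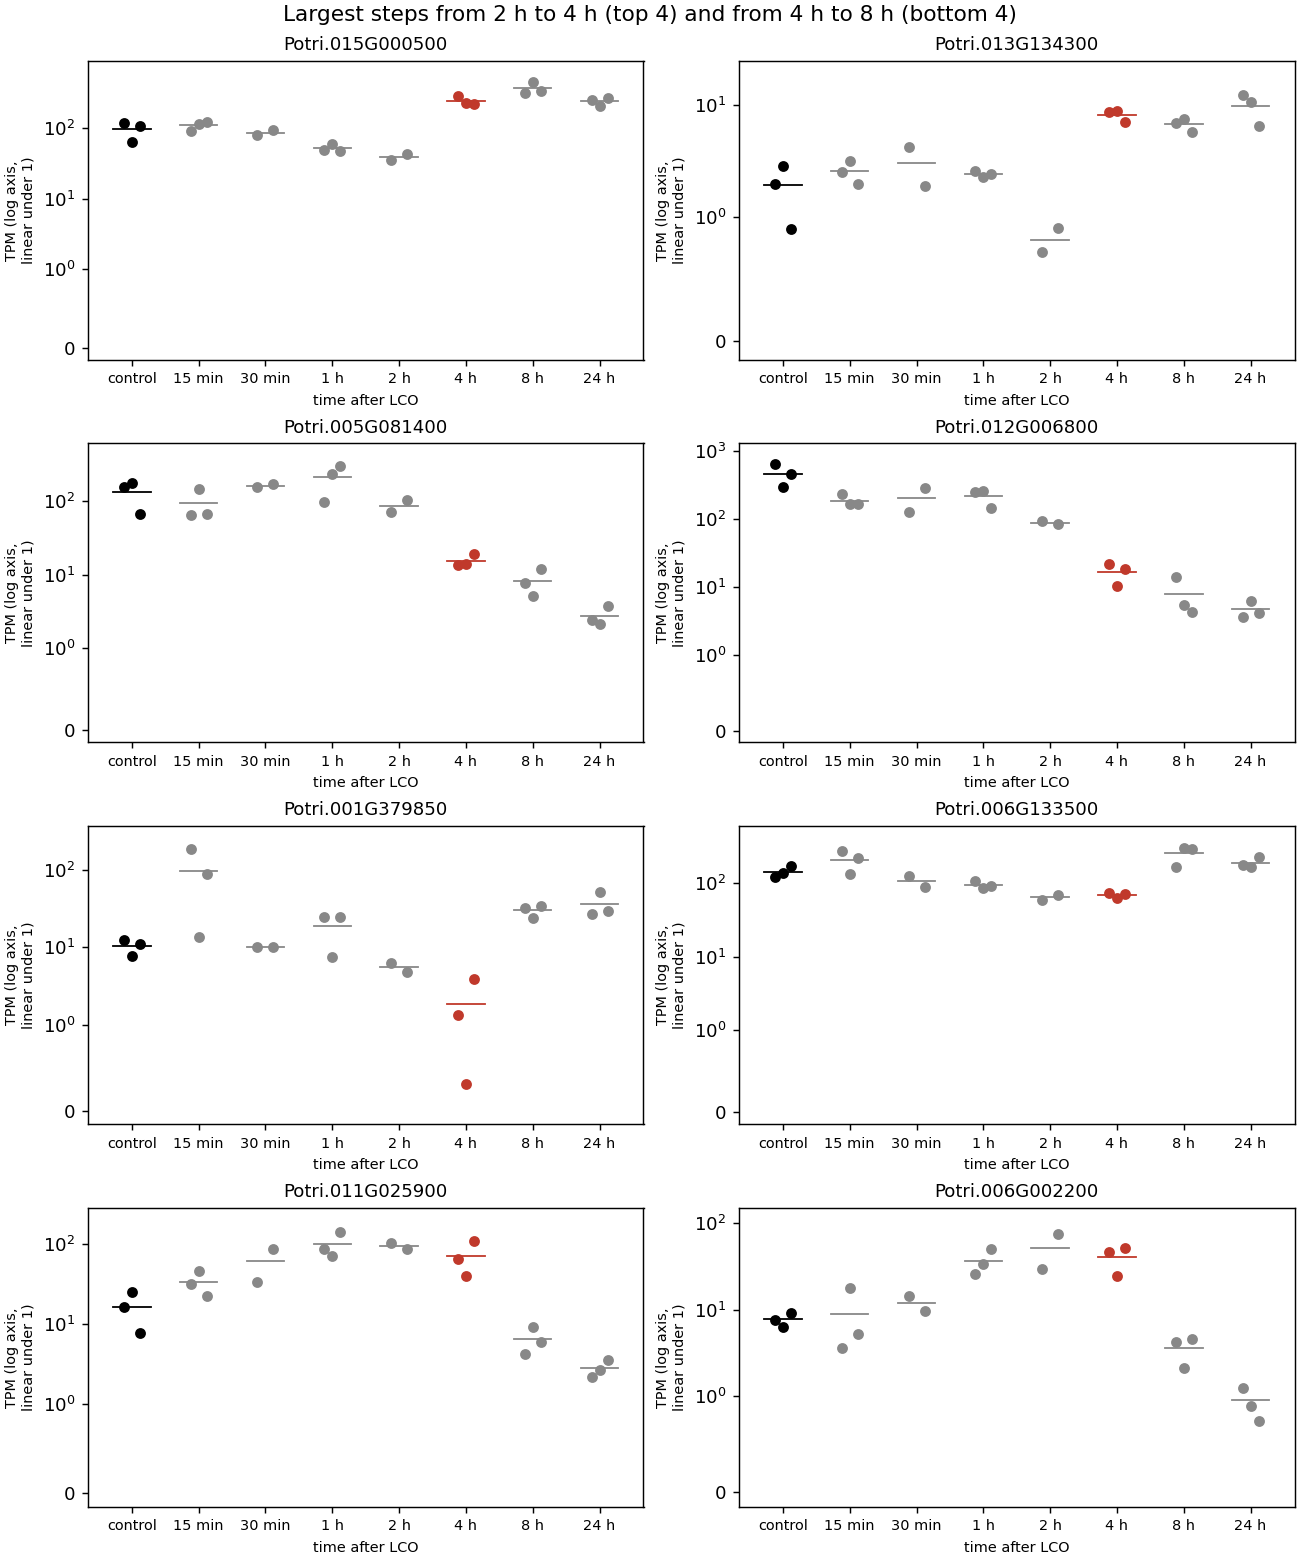
TPM in each library (points) and group means (lines) on a log axis that is linear under 1 TPM, with control in black and 4 h in red. The genes had the largest steps up and down from 2 h to 4 h (top 4 panels) and from 4 h to 8 h (bottom 4 panels). They are the largest among genes also called at 4 h against control that met the rule for naming. Potri.015G000500 crosses from below to above its control level between 2 h and 4 h, and Potri.011G025900 and Potri.006G002200 drop from 4 h to 8 h.

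At the level of single transcripts, 844 of 29885 tested were higher at 4 h (2.82%) and 986 lower (3.3%), 6.12% together. The count of 1830 became 1048 when control replicate 1 was left out, and 1126 and 975 when 4 h replicates 1 and 2 were. Of the genes that rose, 820 of 1182 had a called transcript that rose, and of those that fell, 948 of 1270 had one that fell. Most called genes had a single tested transcript, 1016 of those that rose and 1099 of those that fell. The share of all genes with a single tested transcript was not counted, so this is not read as a trait of called genes. Among the 3792 genes that had several tested transcripts, 16 had 2 or more called, and 1 of these, Potri.005G254000, had transcripts called in opposite directions. It falls outside the rule for naming genes and is given because it is the only one. Its transcript 1 was at 4.94, 6.03 and 5.02 TPM in the control and at 0.0551, 2.17 and 0.0194 TPM at 4 h, and its transcript 2 was at 0.430, 0.0683 and 0.0661 TPM and then at 5.70, 3.71 and 5.26 TPM. The groups did not overlap for either transcript, and the transcripts changed places (-2.07, SE 0.54, adjusted p = 0.0286, and 2.31, SE 0.24, adjusted p = 1.22e-05). The gene total was not called (0.00, SE 0.13, adjusted p = 0.990). Reads common to both transcripts are divided by an estimate whose error is not in these values.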

How the data were processed

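RNA sequencing measured gene and transcript levels in poplar roots. The authors deposited the natural log of (TPM + 1), quantile-normalized, as the values and the names of the tables show; taken back from base e, each library adds up to between 936253 and 936552 TPM. The submitters' processing notes name kallisto and sleuth but neither their versions nor their roles, and a genome build was not given in the sources used here. Quantile normalization removes any change in total output. TPM keeps no depth.

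Values were taken as log2(TPM + 1). Genes or transcripts averaging 1 TPM or more across the 22 libraries were tested, 25636 of 42950 genes and 29885 of 63498 transcripts, each table on its own. limma 3.58.1 (R 4.3.3) fitted 1 mean per group to all 22 libraries, with a mean-variance trend and 14 residual degrees of freedom; tests were two-sided, with Benjamini-Hochberg adjustment over all genes tested. Plots used matplotlib 3.10.9 under Python 3.11.15.

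The samples, lists and tests were chosen with earlier results of these data known. The pseudocount, the filter, the libraries in the fit, a replicate block, library weights, centring and leaving out libraries were varied in turn. The comparisons of 24 h with 2 h and 8 h with 1 h, the sets that turn back after 4 h, and the alternatives for single genes in the steps from 2 h and to 8 h, were added after seeing the data. The planned 30 lists of genes and cell type markers needed gene descriptions and are void. The rule then names the 2 largest rises and 2 largest falls at 4 h among called genes with at least 5 TPM in the higher group and no overlap of libraries. It was extended afterwards to the steps from 2 h and to 8 h, for genes also called against control. Which genes share reads with near-identical copies was not examined. 30 min replicate 2 and 2 h replicate 3 were not analysed here.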

Additional observations from a re-analysis of the deposited data

Results flagged for a closer look

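For 10 of the genes named above, the difference from control at 4 h differed from that at 2 h or at 8 h in the direct test of limma, which flags them; most were named for that step, so the flags add no separate evidence. Between 2 h and 4 h the log2 difference was 2.60 for Potri.015G000500 and 2.35 for Potri.013G134300, and -2.40 for Potri.005G081400 and -2.38 for Potri.012G006800. Between 4 h and 8 h it was 3.63 for Potri.001G379850 and 1.80 for Potri.006G133500, and -3.21 for Potri.011G025900 and -3.14 for Potri.006G002200. Potri.019G058900, with -2.61, and Potri.006G223900, with -1.06, were named for their 4 h difference from control and were also called between 4 h and 8 h.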

How the results depend on the processing

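Counts of called genes moved by over 1.5 times as follows, and the cause was not tested. Library weights gave 6376 genes at 4 h against control, with 3544 higher and 2832 lower in place of more falls than rises, 967 at 4 h against 2 h, 10842 at 8 h against 4 h and 5007 transcripts. Without 15 min replicate 2 and 30 min replicate 3 the counts were 761 and 7399 for the steps from 2 h and to 8 h, and with a fit restricted to the groups compared 159 and 8986. Leaving out 1 library gave 1352 to 1867 genes at 4 h against control, 19 to 192 at 4 h against 2 h, 1335 to 3374 at 8 h against 4 h, 4066 to 7478 at 24 h against 2 h and 975 to 1309 transcripts. Where 1 library is left at 2 h, its spread is taken from the other groups. For the sets that turn back after 4 h, weights gave 681 and 477 genes, and the joint omission 274 and 177.

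Same-numbered replicates did not deviate together (r = -0.16, 0.07 and -0.09 between control and 4 h), so the numbers are not taken to pair the samples. With a replicate block the counts were 2577 at 4 h against control, 367 at 4 h against 2 h, 5021 at 8 h against 4 h and 1908 transcripts.

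The named genes were followed under the alternatives in 22 comparisons, 4 h against control for all 12 and each step in which they were called. Direction was kept in all 300 alternatives and the call in 277, with losses in 6 of the comparisons, given beside their values. Other pseudocounts, filters and centring moved no count of called genes or transcripts by over 1.5 times. The unknown read depth limits statements on genes at or near 0.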
